A study of Homo sapiens with 4 samples.

Results

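The genes described here encode 6 integrin subunits (ITGA6, ITGB4, ITGA3, ITGB1, ITGA2 and ITGAV), 2 laminin chains (LAMA3 and LAMB3) and the transmembrane collagen COL17A1. They were chosen by name, as genes of the hemidesmosome and of integrin attachment to laminin, and were read from array probes whose accession mapped to one of these symbols. All 9 were detected, among 13039 detected genes, and they were measured by 10 of 50599 probes and 28 of 58717 spots. ITGA6 had 2 probes, and the single probes of ITGB1 and ITGAV were each printed in 10 spots. RNA was measured on single-colour Agilent whole human genome arrays, on which a spot's fluorescence intensity stands for the amount of labelled RNA. The 2 TIA1 RIP arrays held RNA recovered with an anti-TIA1 antibody from cytoplasmic lysates of KYSE180, an established line of esophageal squamous cell carcinoma cells. The 2 total RNA arrays held the input RNA of the same line, with no further treatment named in the labels. The comparison asks which transcripts were recovered with TIA1, an RNA-binding protein that regulates translation and stability of messenger RNAs, relative to their level in the input RNA. Whether the input RNA came from the cytoplasmic lysate or from whole cells is not given in the sources used here, and a difference between the compartments cannot be told apart from recovery with TIA1. The study used 1 cell line for these arrays, and RNA from IgG immunoprecipitates was not analysed here, so that background binding to beads and antibody is not subtracted.

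Hemidesmosomes fasten the basal cells of stratified epithelia such as the esophagus to the basement membrane. At their core the integrin of ITGA6 and ITGB4 binds a laminin that holds the LAMA3 and LAMB3 chains on the outside, and on the inside plectin (PLEC) and the dystonin BPAG isoform (DST) tie it to keratin filaments. COL17A1 and the tetraspanin CD151 are further membrane components. ITGB1 forms laminin and collagen receptors with ITGA3, ITGA6 and ITGA2, and ITGAV forms receptors for vitronectin and fibronectin with several beta subunits. TIA1 is known to bind U-rich and AU-rich stretches, often in the 3′ untranslated region (UTR) of a transcript.

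To show what such stretches look like in these transcripts, the 30-base window with the most U in each 3′ UTR was read from the reference transcripts of the GENCODE annotation on GRCh37, the build of the array design. All windows lie in the last exon, within the 3′ UTR. They are written 5′ to 3′ as RNA, and capitals mark runs of 3 or more U. The letters are those of the reference and do not show where TIA1 was bound.
ITGA6: uuaUUUguauaugguaUUUaUUUUUUcUUU
ITGB4: UUUguucugcacuuaauaaauggUUUUgcu
ITGA3: uguccccUUUcuuccuaUUUaucauaaguu
ITGB1: uugaaUUUaUUUUauuaUUUUUaUUUUguu
ITGA2: aUUUcUUUUUaaaucccauaUUUUUUUUau
ITGAV: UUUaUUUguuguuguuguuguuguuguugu
LAMA3: uguguaUUUUauauaaaaaucccaUUUcuu
LAMB3: cUUUgcUUUUgguugggggcagauuggguu
COL17A1: UUUcccauuaaagaagUUUUUUUUUcuaau

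The windows of ITGB1, ITGA6 and ITGAV held 22, 21 and 21 U, that of ITGA2 held 19, and those of COL17A1, ITGB4, ITGA3, LAMA3 and LAMB3 held 16, 15, 15, 15 and 13. The median over 11499 detected genes with an annotated 3′ UTR was 18. On the plus strand, the ITGA6 window lies at chr2:173369612-173369641 in exon 26 of 26, that of ITGB4 at chr17:73753863-73753892 in exon 40 of 40, and that of ITGA3 at chr17:48166663-48166692 in exon 26 of 26. Also on the plus strand are the windows of ITGA2 at chr5:52386497-52386526 (exon 30 of 30), ITGAV at chr2:187542362-187542391 (exon 30 of 30) and LAMA3 at chr18:21534789-21534818 (exon 75 of 75). On the minus strand are those of ITGB1 at chr10:33189676-33189705 (exon 16 of 16), LAMB3 at chr1:209788547-209788576 (exon 23 of 23) and COL17A1 at chr10:105791045-105791074 (exon 56 of 56).

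The arrays differed in brightness, and 1 of them stood apart. The 75th percentile of the processed signal was 1514 and 1271 on TIA1 RIP replicates 1 and 2, against 714 and 69.9 on total RNA replicates 1 and 2. Between 45.8% and 48.4% of spots passed as well above background on the first 3 of these arrays, and 32.2% on the last. Across the 13039 genes, the scaled signals of total RNA replicates 1 and 2 correlated at r = 0.733, less than those of TIA1 RIP replicate 1 and total RNA replicate 1 (r = 0.936) or of the 2 TIA1 RIP arrays (r = 0.932). The values of the 9 genes are therefore given below against each total RNA array as well as against their mean. Epithelial markers were detected for 7 of 7 listed genes (KRT5, KRT14, KRT6A, KRT17, TP63, DSG3 and EPCAM), of which EPCAM is not particular to squamous cells. Of 7 listed markers of other cell types, none was well above background on all 4 arrays. COL1A1, PTPRC and CDH5 passed the detection filter, which asks for both arrays of a group, while VIM, COL1A2, CD3E and PECAM1 did not. The RNA of each array came from many cells together, so that fewer cells with a transcript and less RNA per cell cannot be told apart. The labels do not say that replicates came from separate cultures, so that p-values measure only the spread between these arrays, which may be technical. The standard errors and p-values of limma are moderated, which draws each gene's spread towards that of all genes. They are therefore not a gene's own replicate spread alone.

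The levels below are scaled log2 signals, the log2 of the processed signal minus the 75th percentile of the same array, so that 0 is the 75th percentile. A ratio is the difference of 2 such levels, TIA1 RIP minus total RNA, and is negative where the gene had a lower share of the signal in the immunoprecipitate. ITGB4, LAMB3, ITGA3 and COL17A1 had lower levels on both TIA1 RIP arrays than on both total RNA arrays, with log2 ratios of the means of -2.53, -2.08, -1.62 and -1.06, which became -0.47, -0.02, 0.44 and 0.99 relative to GAPDH. This was the case for 4 of the 9 genes and for 21.7% of all genes. ITGA6, ITGB1, LAMA3 and ITGAV lay below total RNA replicate 1 and above total RNA replicate 2 on both TIA1 RIP arrays, with log2 ratios against the mean of both of 0.76, 0.50, 1.05 and 2.68. ITGA2 lay below total RNA replicate 1 and could not be placed against replicate 2, where its signal and that of ITGAV were not well above background. None of the 9 genes lay above both total RNA arrays on both TIA1 RIP arrays, against 19.4% of all genes.

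**Figure D1:**
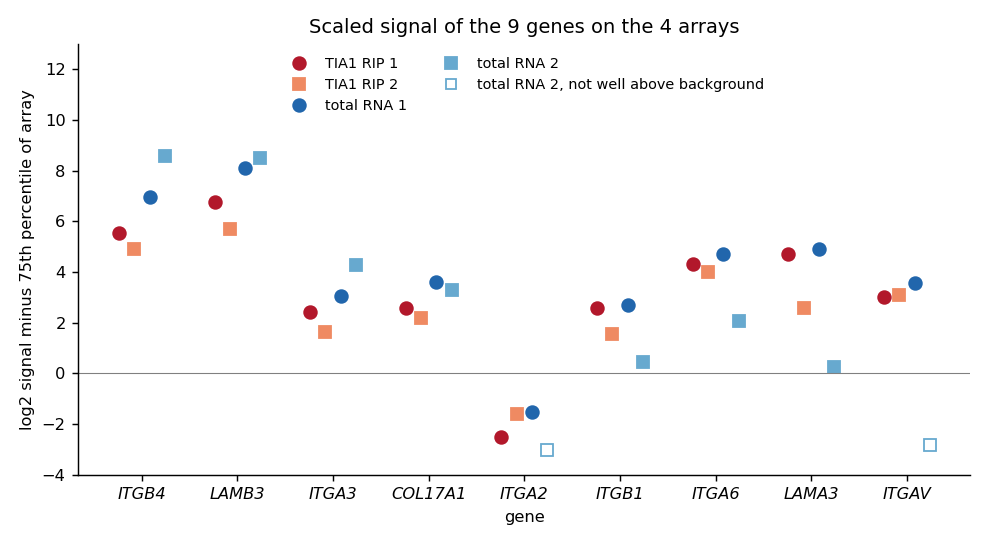
Scaled log2 signal (vertical axis; 0 is the 75th percentile of an array) of the 9 genes on the 2 TIA1 RIP and 2 total RNA arrays, 1 point per array. The points of total RNA replicate 2 lie far below the other 3 arrays for ITGAV (-2.84, open, not well above background) and LAMA3 (0.25), and above them for ITGB4 (8.58); levels of different genes come from different probes and are not compared.

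None of the ratios passed the adjusted threshold of 0.05 in limma with Benjamini-Hochberg adjustment over all genes. The adjusted p of the 9 genes was between 0.776 and 0.952. The same fit called 0% of all genes in either direction, with a lowest adjusted p of 0.59. At an unadjusted limma p below 0.05, 1.10% of all genes were higher in TIA1 RIP (144 genes, none of the 9) and 4.02% were lower (524 genes, ITGB4 and LAMB3 among them).

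Of the 2 subunits of the hemidesmosome integrin, ITGA6 had scaled log2 signals of 4.31 and 4.01 in TIA1 RIP replicates 1 and 2, 4.72 in total RNA replicate 1 and 2.08 in total RNA replicate 2. The TIA1 RIP arrays lay close together, at 4.16 ± 0.21 (SD, n = 2), between the total RNA arrays, whose mean was 3.40 ± 1.87. The log2 ratio of the means was 0.76 with a standard error (SE) of 1.04 (limma adjusted p = 0.859). It was -0.56 against total RNA replicate 1 and 2.08 against total RNA replicate 2. The 2 ITGA6 probes gave log2 ratios of 1.16 and 0.37, -0.49 and -0.63 against total RNA replicate 1, and 2.80 and 1.36 against total RNA replicate 2, so that they shared a sign in each comparison.

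ITGB4, the partner that carries the long cytoplasmic tail of this integrin, had scaled log2 signals of 5.54 and 4.92 in TIA1 RIP, 6.96 in total RNA replicate 1 and 8.58 in total RNA replicate 2. Both TIA1 RIP arrays were below both total RNA arrays, with log2 ratios of -1.41 to -3.65 over the 4 pairs of arrays. The means were 5.23 ± 0.44 and 7.77 ± 1.15 (SD, n = 2), and the log2 ratio of -2.53 (SE 0.89) had a limma p of 0.0249 before and 0.776 after adjustment. The partners thus differed in their ratios, by 3.29 on the log2 scale on the means, with ITGA6 the higher in each of the 4 pairs of arrays. The difference depended on the total RNA array, with 1.00 and 1.32 against replicate 1 and 5.27 and 5.59 against replicate 2.

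ITGB1, the shared beta subunit, had scaled log2 signals of 2.56 and 1.56 in TIA1 RIP, 2.69 in total RNA replicate 1 and 0.44 in total RNA replicate 2. Its TIA1 RIP levels lay between the total RNA levels, and the log2 ratio was 0.50 (SE 1.01, limma adjusted p = 0.906), -0.62 against total RNA replicate 1 and 1.63 against replicate 2. The 10 spots of its probe had an SD of 0.03 on the log2 scale on each of the first 3 arrays and 0.12 on total RNA replicate 2. The total RNA arrays differed by 2.25.

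ITGA3, which forms a laminin receptor with ITGB1, had scaled log2 signals of 2.42 and 1.63 in TIA1 RIP, 3.04 in total RNA replicate 1 and 4.26 in total RNA replicate 2. All 4 pairs of arrays put TIA1 RIP lower, with log2 ratios of -0.61 to -2.63. The log2 ratio was -1.62 (SE 0.86, limma adjusted p = 0.776). Unlike ITGB1, whose level was lower on total RNA replicate 2 than on replicate 1, ITGA3 was higher there by 1.23.

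ITGA2, the collagen-binding partner of ITGB1, was not detected on every array. Its scaled log2 signals were -2.50 and -1.58 in TIA1 RIP, -1.54 in total RNA replicate 1 and -3.02 in total RNA replicate 2, where it was not well above background. The log2 ratio of 0.24 (SE 0.90, limma adjusted p = 0.952) was within the spread of both groups, whose SDs were 0.65 and 1.05. The lowest scaled signal called well above background on total RNA replicate 2 was -1.12, above both TIA1 RIP levels, so that no direction or fold is given against that array. With that limit in place of the signal of total RNA replicate 2, the log2 ratio became -0.71, so that its sign is not settled.

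ITGAV, the vitronectin receptor alpha chain, had scaled log2 signals of 3.03 and 3.08 in TIA1 RIP, 3.58 in total RNA replicate 1 and -2.84 in total RNA replicate 2. TIA1 RIP replicates 1 and 2 and total RNA replicate 1 were close together, and total RNA replicate 2 was not well above background. The raw processed signal of the probe was 12346, 10758 and 8546 on the first 3 arrays and 9.79 on total RNA replicate 2, where its 10 spots ranged from 7.28 to 21.4. Against the lowest scaled signal called well above background on that array, the TIA1 RIP mean was at least 18.0-fold higher, and total RNA replicate 1 itself was at least 25.9-fold higher. The log2 ratio to the mean of both total RNA arrays was 2.68 (SE 1.87, limma adjusted p = 0.776), or at least 1.82 with that limit in place of the signal of total RNA replicate 2. It was -0.53 against total RNA replicate 1.

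Of the laminin chains, LAMA3 had scaled log2 signals of 4.71 and 2.56 in TIA1 RIP, 4.92 in total RNA replicate 1 and 0.25 in total RNA replicate 2. The 2 TIA1 RIP arrays differed by 2.14, the widest gap among the 9 genes, and the 2 total RNA arrays by 4.67. The log2 ratio was 1.05 (SE 1.56, limma adjusted p = 0.872), with -1.29 against total RNA replicate 1 and 3.39 against replicate 2.

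LAMB3 had scaled log2 signals of 6.76 and 5.71 in TIA1 RIP, 8.12 in total RNA replicate 1 and 8.50 in total RNA replicate 2. Here the total RNA arrays differed by only 0.38, and both TIA1 RIP arrays were lower in all 4 pairs, with log2 ratios of -1.36 to -2.79. The means were 6.23 ± 0.74 and 8.31 ± 0.27 (SD, n = 2), and the log2 ratio of -2.08 (SE 0.82) had a limma p of 0.039 before and 0.776 after adjustment. It was -1.88 against total RNA replicate 1 and -2.27 against replicate 2. The log2 ratio of LAMA3 exceeded that of LAMB3 by 1.14 and 0.05 against total RNA replicate 1 with TIA1 RIP replicates 1 and 2. Against total RNA replicate 2 it did so by 6.20 and 5.11.

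COL17A1 had scaled log2 signals of 2.58 and 2.19 in TIA1 RIP, 3.60 in total RNA replicate 1 and 3.30 in total RNA replicate 2. The spread within each group was small, with means of 2.39 ± 0.28 and 3.45 ± 0.21 (SD, n = 2), and the groups did not overlap. The log2 ratio was -1.06 (SE 0.78, limma adjusted p = 0.776). With LAMB3 it was 1 of the 2 genes among the 9 whose total RNA arrays differed by less than 0.5 on the log2 scale, and its ratio was similar against each of them, at -1.21 and -0.91.

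Against total RNA replicate 1, the brighter total RNA array, the 9 genes shared a direction. All 9 had lower scaled signals on both TIA1 RIP arrays, against 35.5% of all genes, and this became 8 of 9 (without ITGA2) after normexp background correction and 2 of 9 (ITGB4 and LAMB3) relative to GAPDH, where 6.49% of all genes did so. None lay above it on both, against 41.2% of all genes. The ratios of the TIA1 RIP mean ranged from -0.50 for ITGA2 to -1.88 for LAMB3, and their median was -1.01 beside 0.07 over all genes. More than 2-fold lower were 5 genes (ITGB4, ITGA3, LAMA3, LAMB3 and COL17A1), against 12.9% of all genes. None was more than 2-fold higher, against 14.0% of all genes. With 1 array on one side, these ratios have no test.

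Against total RNA replicate 2, the same genes divided. ITGA6, ITGB1, LAMA3 and ITGAV lay above it on both TIA1 RIP arrays, where 39.6% of all genes did so, and ITGB4, ITGA3, LAMB3 and COL17A1 lay below it on both (49.7%). These shares of all genes include genes not well above background on that array. Among genes measured on all 4 arrays, 28.0% lay above it and 60.5% below it on both, beside 42.9% and 57.1% of the 7 such genes of the 9. Over the 7 genes measured on all 4 arrays, the ratios ranged from -3.34 for ITGB4 to 3.39 for LAMA3, with a median of -0.91 beside -0.79 over the 9257 genes measured on all 4 arrays. The median of all 9 was also -0.91 with ITGAV and ITGA2 at the limit of that array. More than 2-fold higher were ITGA6, ITGB1, LAMA3 and ITGAV (28.2% of all genes) and more than 2-fold lower were ITGB4, ITGA3 and LAMB3 (36.7%).

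**Figure D2:**
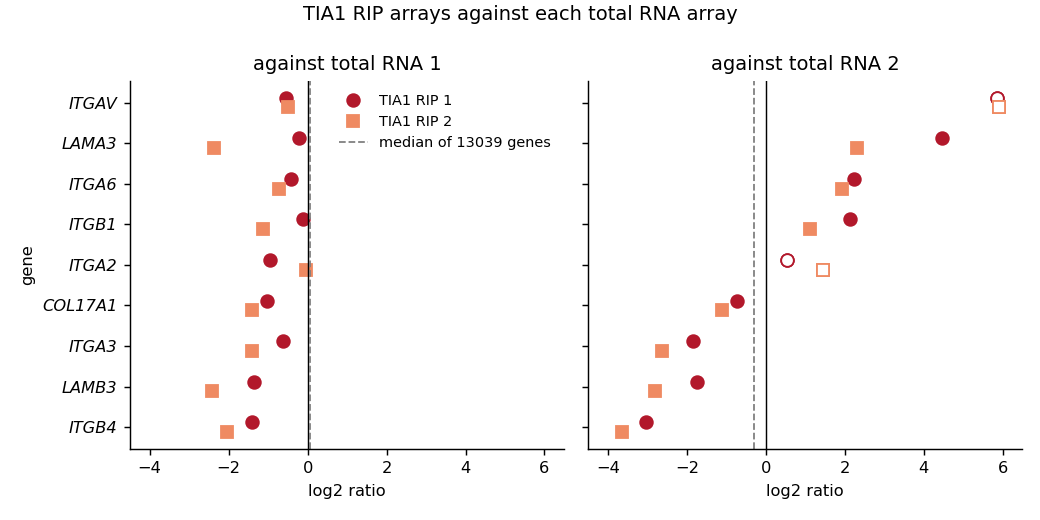
Log2 ratio (horizontal axis) of each TIA1 RIP array to total RNA replicate 1 (left) and to total RNA replicate 2 (right) for the 9 genes, 1 point per TIA1 RIP array, open where total RNA was not well above background. Every point lies below 0 against replicate 1, and against replicate 2 both points of ITGA6, ITGB1, LAMA3 and ITGAV lie above 0, those of 4 genes lie below it, and the open points of ITGA2 and ITGAV are not measured ratios.

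The study estimated enrichment relative to GAPDH, a glycolytic enzyme gene whose plentiful transcript it took as one that TIA1 does not target. It combined the arrays with sequencing, which was not analysed here. GAPDH had scaled log2 signals of 6.49 and 6.69 in TIA1 RIP, 7.67 in total RNA replicate 1 and 9.63 in total RNA replicate 2, a log2 ratio of -2.06 (SE 0.93, limma adjusted p = 0.776). Relative to GAPDH on the group means, LAMA3 was 8.63-fold higher in TIA1 RIP, ITGA6 7.07-fold and ITGB1 5.90-fold. ITGAV (26.8-fold) and ITGA2 (4.92-fold) were measured on 1 of the 2 total RNA arrays, and their folds were 14.7 and 2.54 with total RNA replicate 2 at its limit. These 5 of 9 genes were past 2.5-fold, as were 72.4% of all genes. COL17A1 (1.99-fold), ITGA3 (1.35-fold), LAMB3 (0.989-fold) and ITGB4 (0.721-fold) were not, and none of the 9 was past 2.5-fold in the other direction (1.62% of all genes).

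The folds relative to GAPDH depended on the total RNA array. Against total RNA replicate 1, none of the 9 genes was past 2.5-fold with either TIA1 RIP array, where 46.0% of all genes were past it with TIA1 RIP replicate 1 and 40.0% with replicate 2. Against total RNA replicate 2, 7 of the 9 were past it with TIA1 RIP replicate 1 (76.7% of all genes) and 6 with replicate 2 (77.7%), ITGAV and ITGA2 among both without a measured level there. ITGA6 was 1.71-fold and 1.2-fold against total RNA replicate 1 and 41.6-fold and 29.3-fold against replicate 2. ITGAV was 1.54-fold and 1.39-fold against the former. No member passed 2.5-fold in all 4 pairs, against 26.2% of all genes. In limma on values relative to GAPDH, 0% of all genes passed the adjusted threshold, 20.2% had an unadjusted p below 0.05 with none of the 9 among them, and the lowest adjusted p of the 9 was 0.256 (ITGA2). When the median over all genes replaced GAPDH as the reference, 1 of the 9 (ITGAV) was past 2.5-fold, against 12.7% of all genes.

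The difference between the 2 total RNA arrays moved with base composition across all genes. The level on total RNA replicate 1 exceeded that on replicate 2 by 4.67 for LAMA3, 2.64 for ITGA6, 2.25 for ITGB1 and 0.30 for COL17A1 on the log2 scale, and by at least 4.70 for ITGAV. For LAMB3, ITGA3 and ITGB4 the same difference was -0.38, -1.23 and -1.62. The difference for ITGA2 was not measured. More than 8-fold apart in this direction were 2 of the 9 genes (ITGAV and LAMA3), as were 6.60% of all genes, and 2 of the 9 (ITGAV and ITGA2) were not well above background on total RNA replicate 2, as were 26.1% of all genes. The GC content of the reference transcript was 38.3% for ITGAV, 39.5% for ITGB1, 40.1% for ITGA2, 42.5% for ITGA6 and 50.7% for LAMA3, and 56.1% for COL17A1, 59.5% for LAMB3, 60.9% for ITGA3 and 63.6% for ITGB4. The 4 genes higher than total RNA replicate 2 in TIA1 RIP were among the 5 of lowest GC content, with ITGA2 as the other. Over the 7 genes measured on all 4 arrays, which share those arrays, GC content and the difference between the total RNA arrays gave r = -0.77 (rho = -0.86), beside r = -0.70 over the 11499 genes. The median difference fell from 2.06 in the lowest of 10 equal groups of genes by GC content to -2.08 in the highest. LAMA3, at 4.67, lay far above the median of its own GC group (-0.37) and above that group's 90th percentile (1.13). The medians of the TIA1 RIP ratio in the end groups were 0.23 and 0.01 against total RNA replicate 1, and 2.22 and -2.02 against replicate 2. The part of GC content in the ratios of the 9 genes was not tested.

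**Figure D3:**
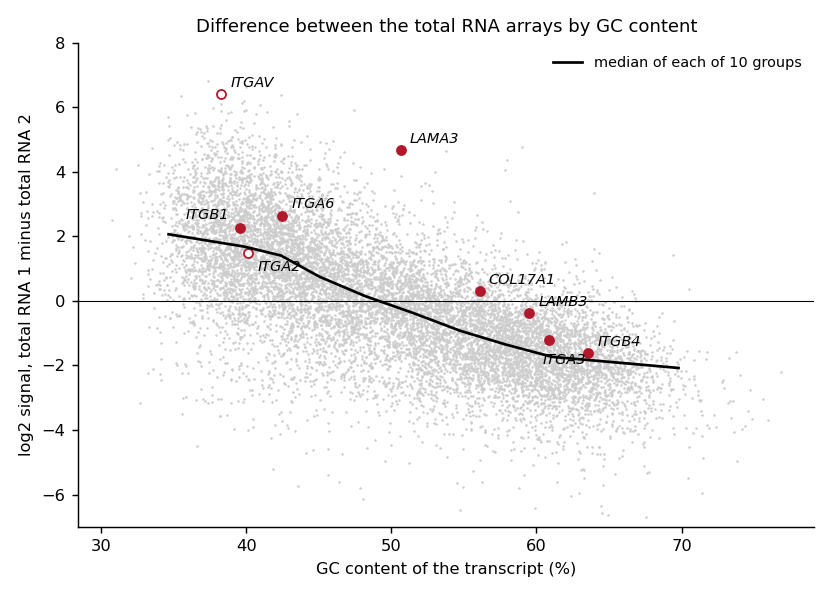
Level on total RNA replicate 1 minus level on replicate 2 (vertical axis, log2) against the GC content of the reference transcript (horizontal axis, %), with 11499 genes in grey, the 9 genes in red and the median of each of 10 groups by GC content as a line. Open points (ITGAV and ITGA2) were not well above background on replicate 2 and are not measured differences. The line falls from 2.06 to -2.08, and LAMA3 lies above it at 4.67.

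The 3′ UTRs of the 9 genes were unlike each other. ITGA2, ITGAV and ITGA6 had long ones, of 4180, 3609 and 2391 bases, with 15, 21 and 8 AUUUA motifs. ITGA3, ITGB1 and COL17A1 had 1403, 1252 and 949 bases, with 1, 5 and 0 motifs, and LAMA3, LAMB3 and ITGB4 had 418, 401 and 263 bases, with 1, 0 and 0. The median over the 11499 genes was 1195 bases and 2 motifs, and 70.0% of all 3′ UTRs held AUUUA at least once, as did 6 of the 9. Runs of 5 or more U, searched on the transcript strand like AUUUA, were in 6 of the 9 (78.8% of all), with 21 runs in ITGAV, 14 in ITGA6, 10 in ITGA2, 9 in ITGB1, and 1 each in LAMA3 and COL17A1. These counts grow with the length of a 3′ UTR.

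The U content of the 3′ UTR was 37.5% in ITGB1, 37.2% in ITGAV, 33.6% in ITGA6, 33.3% in LAMA3, 29.8% in ITGA2, 27.8% in COL17A1, 22.4% in LAMB3, 19.4% in ITGB4 and 18.7% in ITGA3, with a median of 29.4% over all genes. Over the 7 genes measured on all 4 arrays it gave r = 0.91 (rho = 0.75) with the ratio against total RNA replicate 2, beside 0.63 over all genes. With total RNA replicate 1 minus replicate 2, a difference without any TIA1 RIP array, U content gave r = 0.88 (rho = 0.82) over these 7. Over all genes this was 0.59. Over the 9 genes U content gave r = 0.70 (rho = 0.55) with the ratio against total RNA replicate 1, beside 0.08 over all genes. GC content gave r = -0.87 (rho = -0.77) with the ratio against replicate 1 over the 9 genes and -0.06 over all genes. The length of the 3′ UTR gave r = 0.82 (rho = 0.97) and 0.00 in the same comparison. COL17A1, LAMB3, ITGA3 and ITGB4 had the highest GC content of the 9 and also the lowest U content, so that these features are not separate here. No correlation among the 3 features was computed over the 9 transcripts, and their parts in the ratios were not tested. Length and U content did not rank the genes alike, with 418 bases and 33.3% U in LAMA3 against 4180 bases and 29.8% U in ITGA2. The 9 genes on shared arrays are few points, and the ratios against replicate 1 span only from -0.50 to -1.88, all below 0.

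**Figure D4:**
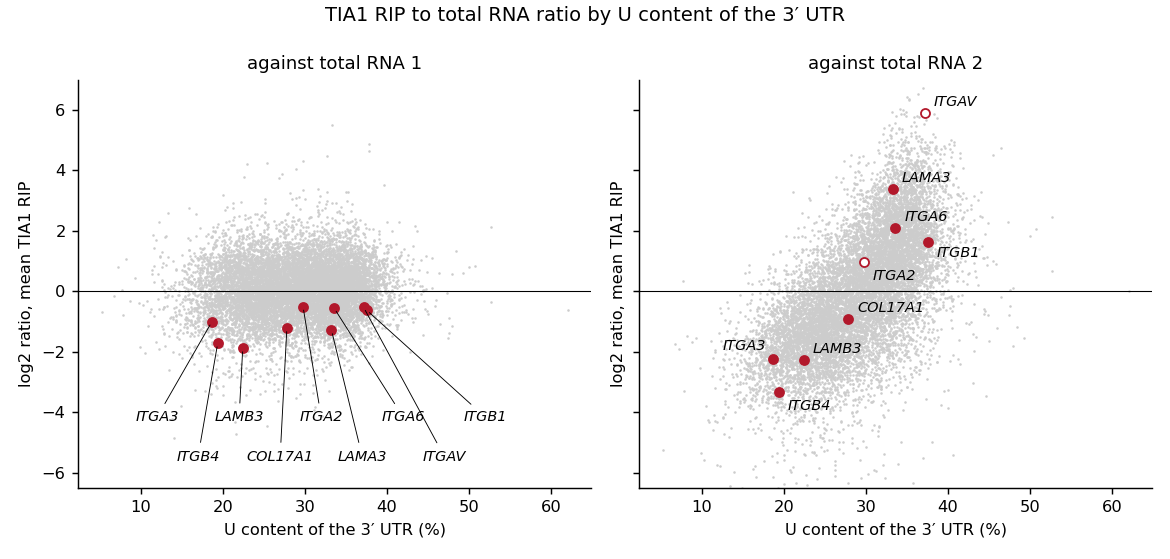
Log2 ratio of the TIA1 RIP mean (vertical axis) to total RNA replicate 1 (left) and replicate 2 (right) against the U content of the 3′ UTR (horizontal axis, %), with all genes in grey and the 9 genes in red; a few grey points lie outside the axis range. Against replicate 1 all 9 genes lie between -0.50 and -1.88, and against replicate 2 the 7 measured ones run from -3.34 (ITGB4, 19.4% U) to 3.39 (LAMA3, 33.3% U). Open points (ITGAV and ITGA2) were not well above background on replicate 2 and are not measured ratios.

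Among 4 lists of related genes, 39 of 49 listed genes were detected and none passed the adjusted threshold in limma. At an unadjusted p below 0.05, none was higher in TIA1 RIP and 2 were lower (PLEC and LAMA4). Of the other hemidesmosome genes, 4 of 4 were detected, with a median log2 ratio of -1.54 (-0.50 against total RNA replicate 1 and -2.59 against replicate 2). PLEC, the plakin that binds the ITGB4 tail, had scaled log2 signals of -1.13 and -1.17 in TIA1 RIP, 0.70 in total RNA replicate 1 and 2.62 in total RNA replicate 2. Its groups did not overlap, and its log2 ratio of -2.81 (SE 0.92, limma adjusted p = 0.776) was close to that of ITGB4. The 2 PLEC probes gave log2 ratios of -2.77 and -2.85, and the latter probe was not well above background on TIA1 RIP replicate 1. COL7A1, the anchoring fibril collagen, also lay lower in all 4 pairs, with a log2 ratio of -2.09 (SE 0.95), -1.33 against total RNA replicate 1 and -2.85 against replicate 2. CD151 had log2 ratios of 0.34 and -2.34 against total RNA replicates 1 and 2, and DST had 0.57 and -0.29, so that neither kept 1 direction. The DST values average 3 probes, not all of the same transcript, of which 1 was well above background on total RNA replicate 2. That DST probe alone gave 0.86 and -1.68. Of these 4 genes, PLEC and COL7A1 lay below total RNA replicate 1 on both TIA1 RIP arrays.

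Of 14 other integrin genes, 7 were detected (ITGA5, ITGA7, ITGB2, ITGB5, ITGB6, ITGB7 and ITGB8), with a median log2 ratio of -0.41. Their median was 0.40 against total RNA replicate 1 and -1.10 against replicate 2, with 5 of the 7 detected on all 4 arrays. The 15 integrin adaptor and signalling genes were all detected, 12 of them on all 4 arrays. Their median log2 ratio was 0.36 (0.11 and 0.76 against total RNA replicates 1 and 2). Among them PARVA, an actin-binding adaptor in the integrin-linked kinase complex, had log2 ratios of 1.10 and 1.14 against total RNA replicate 1 (limma adjusted p = 0.776 over all 4 arrays) and was not well above background on replicate 2. Of 16 genes for ligands, basement membrane proteins and laminin receptors, 13 were detected, 12 of them on all 4 arrays. The median log2 ratio of the 13 was -0.54 (-0.01 and -1.15 against total RNA replicates 1 and 2). LAMA4, a laminin chain of vessel basement membranes, was not well above background on either TIA1 RIP array, and its total RNA mean was at least 8.20-fold higher (limma adjusted p = 0.776). That value rests on 1 LAMA4 probe, and the other LAMA4 probes were not well above background on any array. The kept probe had processed signals of 206 and 168 on total RNA replicates 1 and 2, and another probe of the same transcript had 15.1 and 8.06. ITGB4, LAMB3, PLEC, PARVA and LAMA4 were the genes of these lists and of the 9 with ratios past 1 in size and of 1 sign in all 4 pairs, as were 7.38% of all genes. The ratios of LAMA4 and some of those of PARVA rested on signals not well above background. So did those of PLEC with TIA1 RIP replicate 1, for 1 of its 2 probes.

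**Figure D5:**
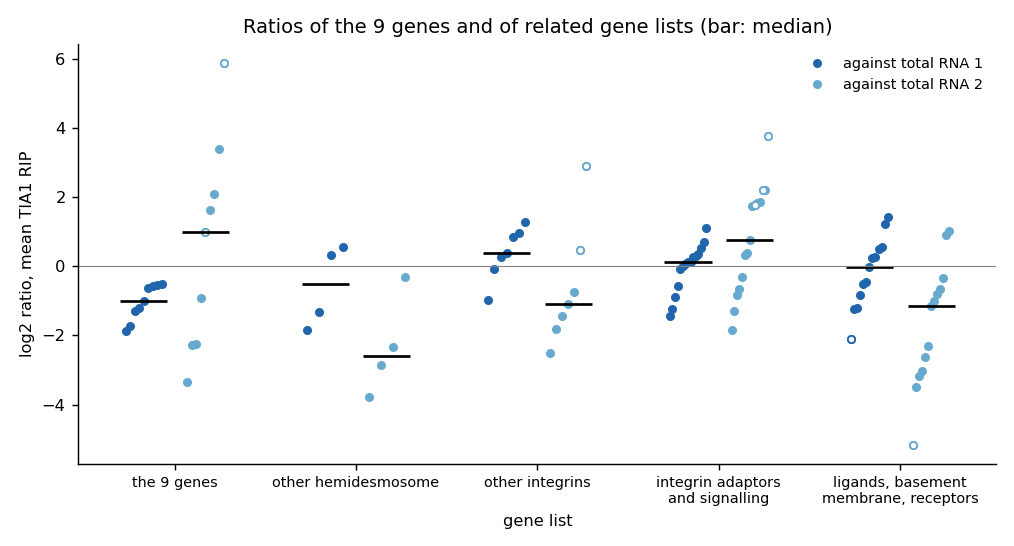
Log2 ratio of the TIA1 RIP mean (vertical axis) against each total RNA array for the 9 genes and the 4 related lists, 1 point per detected gene, open where that total RNA array or both TIA1 RIP arrays were not well above background, and a bar at the median of all points. The median of the 9 genes is -1.01 against total RNA replicate 1. Against replicate 2 the bar of the 9 genes lies at an open point, and the median of its 7 measured genes is -0.91.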

How the data were processed

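RNA of 2 TIA1 RIP and 2 total RNA (input) samples was hybridized to 4 single-colour arrays after labelling of 0.2 µg RNA. The authors quantified the array scans with Agilent Feature Extraction 10.7.1.1. They deposited spot intensities (background-subtracted processed signals, and raw spot and background signals) with flags that mark uneven, deviant, saturated or detected spots. The deposited intensities are not normalized between arrays.

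Spots flagged as uneven or deviant (299 to 382 per array) were left out, the processed signal was taken to log2, and each array's 75th percentile was subtracted. A probe was kept if a share of at least 0.5 of its spots exceeded background (well above background in the flags) on each array of 1 group or both (20099 probes). Kept probes of a symbol were averaged. Accessions were matched to symbols through RefSeq (a GRCh38.p14 table, for names only) and GENCODE on GRCh37, for 34510 of 50599 probes and 97.3% of those with an mRNA accession. The number of arrays limits the precision. Probe sequences were not used here, so where a probe lies in its transcript is not given.

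TIA1 RIP was compared with total RNA in limma 3.58.1 (lmFit and eBayes, R 4.3.3) over all genes with Benjamini-Hochberg adjustment at 0.05, also on values relative to GAPDH. The fit was tested on simulated data. Folds relative to GAPDH were counted past 2.5-fold. Genes named were the 9 genes, GAPDH and ACTB, the other hemidesmosome genes, and genes of the related lists with ratios past 1 in size and of 1 sign in all 4 pairs of arrays. One gene of the hemidesmosome list is not reported here, and list counts leave it out. The genes and lists were chosen with earlier results of these data known. Features of the 3′ UTR come from the GENCODE canonical transcript, found for 11499 of 13039 genes (88.2%). Alternatives were normexp (offset 50), quantile and median scaling, other detection filters, the brightest probe, a floor, ACTB or the median of all genes as reference, 2-fold, the replicate number as a block, and leaving out each array. A slide or scan block was not run because all arrays lie on 1 slide with 1 scan.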

Additional observations from a re-analysis of the deposited data

How the results depend on the processing

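The log2 ratios of ITGB4, ITGA3, LAMB3 and COL17A1 stayed negative under every alternative of background, scaling, filter, probe, floor, block and left-out array that was run, but relative to GAPDH those of ITGA3 and COL17A1 were 0.44 and 0.99. The positive ratios of the other 5 genes rested on total RNA replicate 2. Over the fits that left out 1 array, the log2 ratio ran from -0.56 to 2.08 for ITGA6, -0.62 to 1.63 for ITGB1, -0.50 to 0.98 for ITGA2, -0.53 to 5.89 for ITGAV and -1.29 to 3.39 for LAMA3. The negative ends came without total RNA replicate 2, and the positive ends of ITGAV and ITGA2 rest on a signal not well above background on that array. ITGA2 was also -0.22 without TIA1 RIP replicate 2, and LAMA3 was -0.02 without TIA1 RIP replicate 1. ITGA2 was -0.58 after normexp. The median ratio of the 9 genes (0.24) was -0.58 after normexp and -1.06 over the 7 genes detected on all 4 arrays, and ran from -1.01 (without total RNA replicate 2) to 0.98 (without replicate 1, the value of ITGA2) with 1 array left out. Quantile scaling moved the median of all genes from -0.04 to 0.13, and that of the 9 genes to 0.46. Without total RNA replicate 1, limma compared the TIA1 RIP arrays with 1 lone array, assumed to vary as they do, and called 3900 genes, 4 of the 9 among them (ITGA6, ITGB4, ITGA3 and ITGAV) and 6 of the 9 relative to GAPDH, where it called 9774 of 13039 genes. The other fits with 1 array left out called 0 to 7 genes and none of the 9. Of the 9 genes, 5 were past 2.5-fold over GAPDH, 3 of 7 among genes detected on all 4 arrays, 1 relative to the median of all genes, 4 after normexp or quantile scaling, 0 without total RNA replicate 2 and 6 without replicate 1. For all genes this count was 9445, and 7048 after normexp, 4349 after quantile scaling, 1653 relative to the median, 5510 without total RNA replicate 2, 10107 without replicate 1 and 5932 of 9237 detected on all 4 arrays. Genes below total RNA replicate 1 on both TIA1 RIP arrays numbered 9, and 2 relative to GAPDH. With the replicate block, 356 genes passed (57 higher, 299 lower), none of the 9 (lowest limma adjusted p 0.0806, ITGAV). That fit gave all 9 genes the same SE, 0.89, so that their p-values follow only the size of the ratio. Without TIA1 RIP replicate 1, or without replicate 2, the 9 genes likewise shared an SE of 1.74. Same-numbered arrays deviated together (r = 0.453), but 2 pairs do not establish a pairing. The causes of these changes were not tested.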

Other observations

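Among 8354 genes with an mRNA accession that were detected on all 4 arrays, the genes whose scaled levels followed ITGA6 most closely over the 4 arrays were RBM39, a splicing factor gene, and LRRFIP2, at Euclidean distances of 0.07 and 0.10 on the log2 scale after subtraction of each gene's mean. The genes closest to ITGB4 were PSMB10, an immunoproteasome subunit, and EEF1D, a translation elongation factor subunit, at 0.07 and 0.15. With 4 arrays, such likeness describes these arrays only.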
